A study of Mus musculus with 7 samples.

Results

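The mouse gene Mir205 encodes the microRNA miR-205. It lies on chromosome 1 inside the last exon of a long noncoding host transcript, 4631405K08Rik, which RefSeq names Mir205hg. These genes and the nearby protein-coding genes Camk1g, G0s2, Hsd11b1, Traf3ip3 and Syt14 are described here. They were chosen by name and position and not by their values, and they are 7 of the 47729 Ensembl genes in the deposited table. The tissue was surface ectoderm, the outer epithelium of the embryo, cut by laser from frozen head sections between eye and brain at E12.5 (days of embryonic development). There were 4 libraries from miR-205 knockout embryos (replicates 1 to 4) and 3 from wild type embryos (replicates 2 to 4), each from a pool of 3 embryos. How the knockout allele was made, how many bases it removes, and the strain are not given in the sources used here.

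A microRNA is cut from a hairpin in a longer RNA by nuclear and then cytoplasmic nucleases, and the nuclear cut breaks the RNA that carries the hairpin. The mature strand pairs through its seed, bases 2 to 8, with messages and lowers their level or translation. miR-205 is known for its abundance in the basal cells of stratified epithelia. The listed neighbours Camk1g, G0s2, Hsd11b1, Traf3ip3 and Syt14 have known roles in calcium signalling, fat breakdown, steroid activation, immune signalling and vesicle traffic, in that order.

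The sequences of the locus are shown because the deleted microRNA was not counted and only its surroundings were. The 2 mature strands from RefSeq (GRCm38.p6, minus strand of chromosome 1) follow 5′ to 3′, with the seed in capitals.
mmu-miR-205-5p: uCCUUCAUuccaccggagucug
mmu-miR-205-3p: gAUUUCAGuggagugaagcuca
The 5p strand spans chr1:193507503-193507524 and the 3p strand chr1:193507467-193507488. The next line is the host transcript around the hairpin, as DNA letters from GENCODE M21 (GRCm38, chr1:193507413-193507580, minus strand). The 68 bases of the annotated hairpin are in capitals, with 50 bases of host exon on either side.
hairpin in its host exon: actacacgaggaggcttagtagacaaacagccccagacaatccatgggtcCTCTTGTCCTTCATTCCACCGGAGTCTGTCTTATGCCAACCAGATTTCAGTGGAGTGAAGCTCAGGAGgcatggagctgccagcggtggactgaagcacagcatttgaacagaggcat
The host transcript is 2112 bases long after splicing of 2 exons, of 450 bases (chr1:193509725-193510174) and 1662 bases (chr1:193507238-193508899). The hairpin takes bases 1820 to 1887, in the second exon. RefSeq draws the host gene from 193506460 to 193510210, with 778 more bases at its 3′ end than GENCODE M21. Reads in such an extension would not be counted for a gene that ends earlier.

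The libraries held between 8903523 and 11869658 recovered reads in knockout and between 8947136 and 12504790 in wild type. Surface ectoderm and basal epithelium genes were detected in each library, with a mean of 33 such genes between 9.21 and 9.98 in knockout and between 9.80 and 9.91 in wild type on the log2(normalized count + 1) scale. Knockout replicates 1 and 2 had the lowest ectoderm means, 9.21 and 9.37. They also had the highest endothelial means, 7.23 and 7.62 over 13 genes, against 6.51 and 6.18 in knockout replicates 3 and 4 and 5.85 to 6.29 in wild type. Wild type replicate 2 had the highest mean of 12 erythroid genes, 12.49, against 10.34 to 11.55 in knockout and 11.51 and 10.56 in wild type replicates 3 and 4. Wild type replicate 3 had the lowest mean of 22 neural genes, 4.76, against 7.73 to 8.50 in knockout and 7.90 and 7.23 in wild type replicates 2 and 4. In such bulk samples, fewer cells of a type and less RNA per cell cannot be told apart.

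Mir205 had 0 reads in each of the 4 knockout and 3 wild type libraries. A count of 0 allows up to 3 reads, or between 0.240 and 0.337 reads per 1000000 over the libraries, for counting error only. The 0 is a property of how the gene is counted and does not check the genotype. The cDNA kit primes on poly(A) tails, which a mature microRNA lacks, and the counting gives a read that runs past the hairpin into the host exon to the host. Of 2202 annotated microRNA genes in the table, 282 lay like Mir205 inside an exon of another gene on the same strand, and none of these 282 had a read in the 7 libraries. Of the 1920 others, 63 had reads.

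The host transcript 4631405K08Rik (ENSMUSG00000097850) was readily detected in both groups. It had 2194, 2037, 3959 and 3346 normalized counts in knockout replicates 1 to 4, against 664, 1881 and 1713 in wild type replicates 2 to 4. Each of the 4 knockout libraries lay above each of the 3 wild type libraries, and wild type replicate 2 lay far below all others. The values rest on 1945, 1853, 4478 and 3823 reads in knockout and 544, 2188 and 1831 reads in wild type, so counting error is small beside the spread between libraries. The mean in knockout was 2.03 times that in wild type. The log2 difference was 1.11 (SE 0.44, 95% interval 0.04 to 2.17, n = 4 and 3), and it did not pass the threshold of 0.1 over all genes (limma-trend, adjusted p = 0.494). Without wild type replicate 2 it was 0.63 (95% interval -0.05 to 1.30). An adjusted p of 0.284 stands in the authors' deposited table, beside a moderated log2 fold change of 0.80. The table holds 1 value per gene and library, so it does not show which exon the reads came from. Whether the allele removes or alters counted bases of the host is not given either, so whether the 2.03-fold ratio compares the same RNA in both groups cannot be told.

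**Figure D1:**
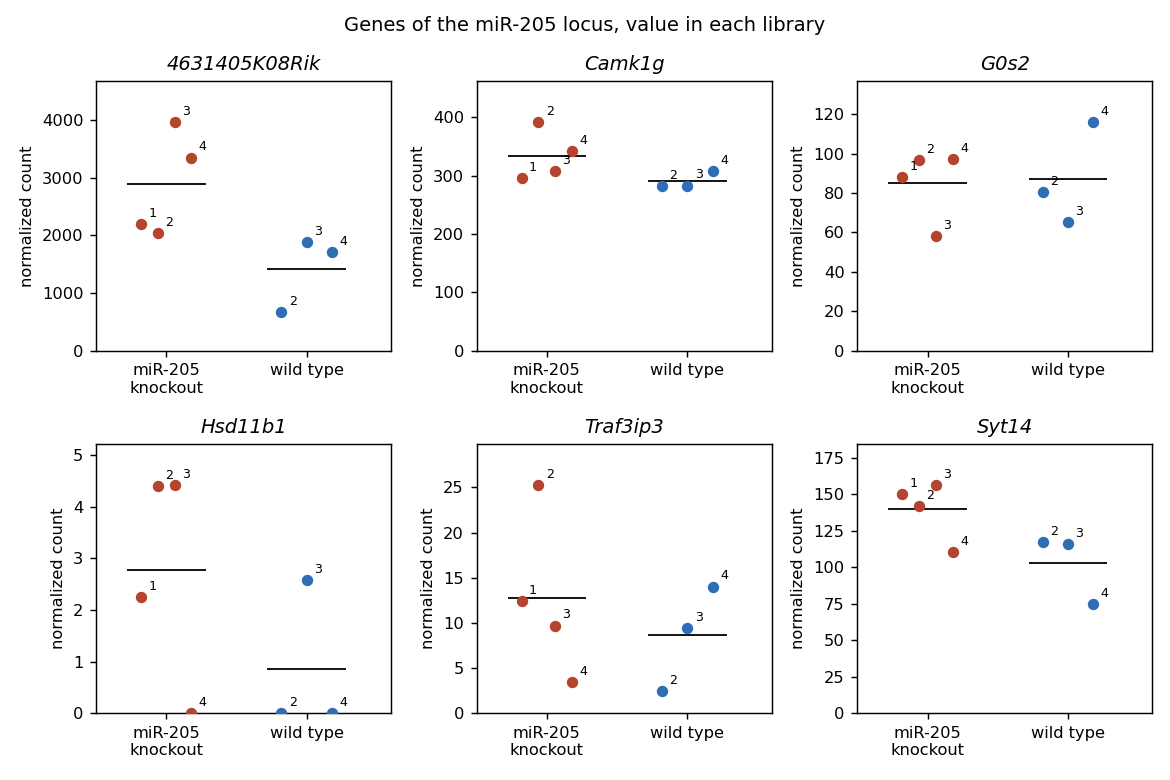
Normalized counts of the 6 members with reads, in 4 miR-205 knockout (left) and 3 wild type (right) libraries. Each point is a library labelled with its replicate number, and black lines are group means. 4631405K08Rik is the member whose knockout libraries all lie above the wild type libraries, at 2037 or more against 1881 or less. The other panels overlap.

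Of the 7 members, 5 passed the filter of a mean of 10 normalized counts, and Mir205 and Hsd11b1 did not. None of the 5 reached the threshold of 0.1 by limma-trend, edgeR or DESeq2, and over all tested genes limma-trend called 0% of 15029, edgeR 0% of 15029 and DESeq2 1.52% of the 14712 it gave an adjusted p. An unadjusted p under 0.05 was reached by 1 member, the host transcript, against 9.77% of all tested genes. The lowest knockout library exceeded the highest wild type library in 1 of the 5 members, against 4.7% of all tested genes. Of the 4 members with an adjusted p in the authors' deposited table, 0 passed 0.1, against 2.83% of the 11933 genes with an adjusted p there.

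The libraries differ in depth in both groups, so the host transcript was also compared between libraries of like depth. In the libraries under 10000000 reads, knockout replicates 1 and 2 averaged 2116 normalized counts, against 664 in wild type replicate 2 (log2 difference 1.67). In those over 10000000 reads, knockout replicates 3 and 4 averaged 3652, against 1797 in wild type replicates 3 and 4 (log2 difference 1.02). The shallower class holds 1 wild type library, the lowest of the 7, so its value restates that library and has no replicate check. With log2 depth as a covariate the difference was 1.25 (SE 0.14, limma-trend adjusted p = 0.120). In wild type that fit too rests largely on replicate 2. In knockout the shallower libraries, replicates 1 and 2, also had the lowest ectoderm means, so the fit cannot separate depth from the ectoderm mean.

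The host transcript was next set against the epithelial genes of the same library. Its log2 value minus the mean of the 33 ectoderm genes was 1.89, 1.62, 1.97 and 1.91 in knockout replicates 1 to 4, against -0.42, 1.00 and 0.83 in wild type replicates 2 to 4. The knockout libraries lay close together on this scale, and each exceeded each wild type library. The mean was 1.85 ± 0.16 in knockout (SD, n = 4) and 0.47 ± 0.77 in wild type (SD, n = 3), a difference of 1.38 or 2.60-fold. A two-sided exact permutation test gave p = 0.0571, the smallest that 4 against 3 libraries can give, so that 0.05 was out of reach. The log2 value of the host transcript alone had an SD of 0.47 among the same knockout libraries and 0.83 among the wild type libraries. Set against the ectoderm mean, the spread was thus smaller in knockout and nearly unchanged in wild type. Set against Trp63 alone, the master regulator of stratified epithelia, the difference was 1.38. Without wild type replicate 2 the difference from the ectoderm mean was 0.93.

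**Figure D2:**
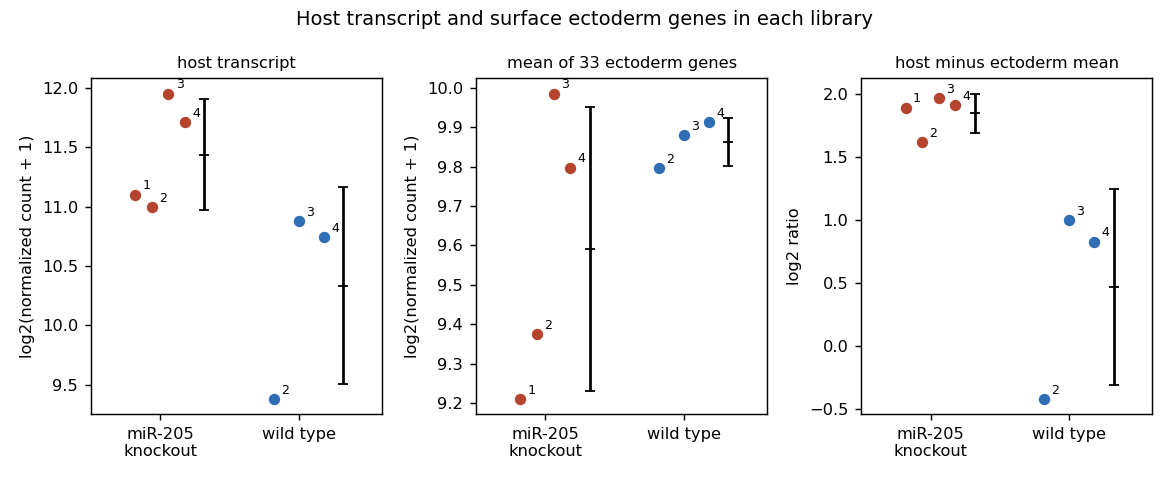
Log2(normalized count + 1) of the host transcript (left panel), the mean of 33 surface ectoderm genes (middle) and their difference (right), in 4 miR-205 knockout and 3 wild type libraries. Points are libraries with their replicate numbers, and bars show mean and SD. The ectoderm mean is lowest in knockout replicates 1 and 2, while the difference lies between 1.62 and 1.97 in the knockout libraries and at 1.00 or less in wild type.

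The epithelial genes themselves ran the other way in their means. Of the 33 ectoderm genes, the mean log2 value in knockout was higher for 4 and lower for 29. Their median log2 difference was -0.30, against 0.01 over all tested genes. None passed 0.1 by limma-trend, and 2 had an unadjusted p under 0.05. By library, the mean of the 33 genes was 9.21, 9.37, 9.98 and 9.80 in knockout replicates 1 to 4, against 9.80 to 9.91 in wild type. Knockout replicates 1 and 2 thus lay below the wild type libraries, while replicate 3 lay above them and replicate 4 among them. The two-sided exact permutation test on these means gave p = 0.4. Perp, a desmosomal gene, had 2359 ± 417 normalized counts in knockout and 3073 ± 305 in wild type (SD, n = 4 and 3). Pax6, which the submitters used to judge libraries, had 1295 ± 425 in knockout and 1934 ± 248 in wild type. Trp63 averaged 1603 ± 276 in knockout and 1914 ± 113 in wild type. Krt5, a basal keratin also used by the submitters, averaged 5801 ± 1336 in knockout and 7221 ± 994 in wild type.

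Per kilobase of annotated exon, the host transcript was the most abundant member. It had 1366 normalized counts per kb in knockout and 672 in wild type, which ranked 418 in knockout and 921 in wild type among 14998 annotated tested genes. Among 773 tested genes that GENCODE M21 classes as long noncoding, it ranked 5 in knockout and 7 in wild type. The median tested gene had 54.1 per kb in knockout and 51.6 in wild type. Camk1g (121 per kb in knockout and 105 in wild type) and G0s2 (97.7 in knockout and 100.2 in wild type) followed, and their libraries overlapped, so these 2 members are not ordered. Syt14 (11.7 in knockout and 8.61 in wild type), Traf3ip3 (2.21 in knockout and 1.50 in wild type) and Hsd11b1 (0.651 in knockout and 0.202 in wild type) came below. Syt14 lay above each library of Traf3ip3 in both groups, while the libraries of Traf3ip3 and Hsd11b1 overlapped.

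**Figure D3:**
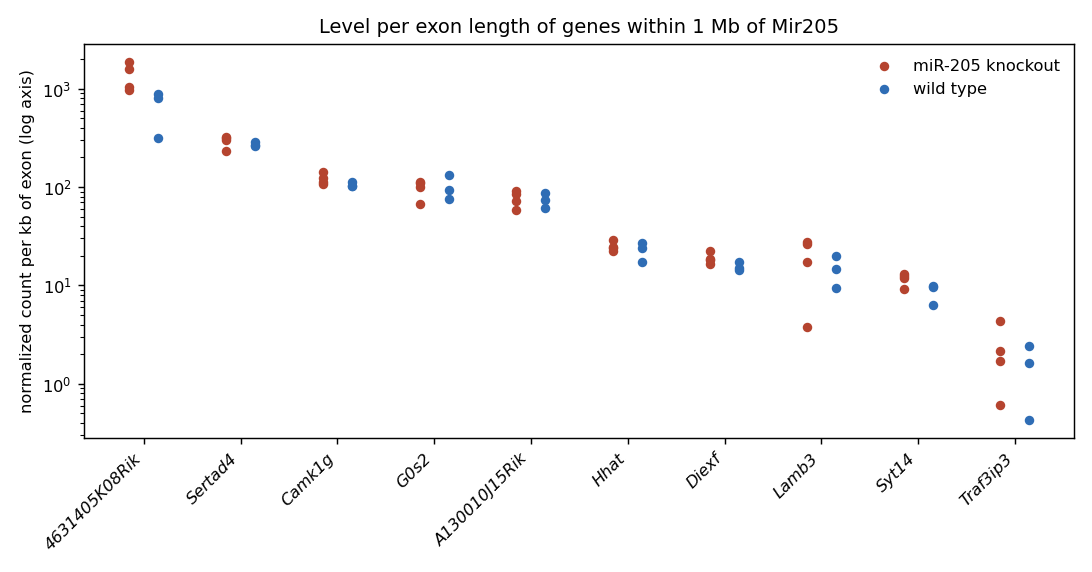
Normalized counts per kb of annotated exon, on a log axis, for 10 of the tested genes that start within 1 Mb of Mir205. Points are libraries, miR-205 knockout left of wild type for each gene. The host transcript, at 1366 per kb in knockout and 672 in wild type on average, lies at the top and Traf3ip3 at the bottom.

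Syt14 encodes a synaptotagmin, a membrane trafficking protein, of the kind that does not bind calcium. It had 150, 142, 156 and 110 normalized counts in knockout replicates 1 to 4, against 117, 116 and 74.8 in wild type replicates 2 to 4. Knockout replicates 1 to 3 lay above the wild type libraries, while replicate 4 lay among them. The log2 difference was 0.46 (SE 0.24, 95% interval -0.08 to 0.99, limma-trend adjusted p = 0.552). Without wild type replicate 4, which held the lowest value, it was 0.25.

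Among the genes within 1 Mb, Syt14 was the single gene whose longest 3′ UTR held a match to the miR-205-5p seed. That 3′ UTR, of 6074 bases, was also the longest of those searched in the window, where the others had 302 to 3487 bases. The match ATGAAGG, complementary to bases 2 to 8, was searched on the message strand of GENCODE M21 3′ UTRs of at least 30 bases. It occurred in 1 of 11 such genes in the window and in 2587 of 20746 genes in the table (12.47%). In Syt14 the match lies at chr1:192892115-192892121 (GRCm38, minus strand), in the 3′ UTR, and is shown in capitals in its surroundings.
Syt14 3′ UTR: ttcgagctgatATGAAGGggacagccttt
No A follows the match, which makes it the 7-base class of site and not the longer 8-base class. A match is a description and not a site shown to be bound. The host transcript holds 0 such matches in its 2112 bases.

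Synaptotagmins are most abundant in neurons, and the list of 22 synaptotagmin and synaptotagmin-like genes was read beside the neural genes. Means were higher in knockout for 14 and lower for 3 of 17 tested synaptotagmin genes, at a median log2 difference of 0.44, with 0 past 0.1 and 1 with an unadjusted p under 0.05. Syt6 had 25.3 ± 22.1 normalized counts in knockout and 4.11 ± 5.06 in wild type, and Sytl2 had 66.2 ± 17.7 in knockout and 36.6 ± 21.5 in wild type (SD, n = 4 and 3). All 22 neural genes had higher mean values in knockout (median log2 difference 1.29, 0 past 0.1, 6 with an unadjusted p under 0.05). Nes, a progenitor filament gene, had 1140 ± 141 in knockout and 762 ± 171 in wild type, and Neurod1, a neuronal transcription factor, had 144 ± 80.4 in knockout and 53.0 ± 28.1 in wild type. By library, the mean of the neural genes was 7.95, 8.50, 7.87 and 7.73 in knockout replicates 1 to 4, against 7.90, 4.76 and 7.23 in wild type replicates 2 to 4. Wild type replicate 3 stood apart, and wild type replicate 2 lay above knockout replicates 3 and 4. In fits chosen after seeing the data, the neural median was 0.47 without wild type replicate 3 (18 genes higher and 4 lower) and 1.98 without wild type replicate 2. Without wild type replicate 3 the synaptotagmin median was 0.26, with 11 genes higher and 6 lower. The part of the neural genes in the values of Syt14 was not tested.

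Camk1g, which encodes a membrane-anchored calcium/calmodulin-dependent kinase, is the nearest protein-coding gene, starting 137.2 kb beyond Mir205. It had 296, 391, 308 and 342 normalized counts in knockout replicates 1 to 4, against 282, 283 and 308 in wild type replicates 2 to 4. The groups overlapped, with knockout replicate 2 highest. The log2 difference was 0.19 (SE 0.14, limma-trend adjusted p = 0.662), and its 95% interval, from -0.12 to 0.51, leaves out a change as large as the host's estimate of 1.11. The host's own 95% interval, from 0.04 to 2.17, overlaps that of Camk1g, and whether their changes differ was not tested. Among 20 genes of calcium/calmodulin-dependent kinases, their calmodulins and inhibitors, means were higher in knockout for 13 and lower for 7 (median log2 difference 0.18, 0 past 0.1, 2 with an unadjusted p under 0.05). Camk2d had 437 ± 83.9 in knockout and 301 ± 30.1 in wild type, and Camk4 had 123 ± 40.5 in knockout and 192 ± 42.0 in wild type.

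G0s2 encodes an inhibitor of adipose triglyceride lipase, the enzyme that begins the breakdown of stored fat. It had 88.0, 96.7, 58.3 and 97.1 normalized counts in knockout replicates 1 to 4, against 80.6, 65.3 and 116 in wild type replicates 2 to 4. The wild type range enclosed all knockout libraries but replicate 3. The log2 difference was -0.03 (SE 0.30, 95% interval -0.68 to 0.63, limma-trend adjusted p = 0.984), so neither direction was detectable. Of 15 tested genes of lipolysis and lipid droplets, means were higher for 6 and lower for 9, with 0 past 0.1 and 0 with an unadjusted p under 0.05 (median log2 difference -0.03). Lipe, hormone-sensitive lipase, had 49.6 ± 20.4 in knockout and 73.8 ± 13.3 in wild type, and Lipa, lysosomal acid lipase, had 372 ± 20.6 in knockout and 312 ± 92.7 in wild type.

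Hsd11b1 makes active glucocorticoid from its inactive ketone. It was nearly absent, with 2, 4, 5 and 0 reads in knockout replicates 1 to 4, against 0, 3 and 0 reads in wild type replicates 2 to 4. A difference was not detectable at this depth. Of 19 tested genes of glucocorticoid metabolism and response, means were higher for 8 and lower for 11 (median log2 difference -0.11), and 0 passed 0.1 while 4 had an unadjusted p under 0.05. Mt1, a metallothionein, had 1143 ± 239 in knockout and 1649 ± 156 in wild type, and Sgk1, a kinase of ion transport, had 247 ± 70.4 in knockout and 148 ± 19.05 in wild type.

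Traf3ip3, a partner of the signalling adaptor TRAF3 known from lymphoid cells, was near the lower limit of testing. It had 12.4, 25.3, 9.72 and 3.50 normalized counts in knockout replicates 1 to 4, against 2.44, 9.46 and 14.0 in wild type replicates 2 to 4. The groups overlapped throughout, and the log2 difference of 0.49 had an SE of 0.83 (limma-trend adjusted p = 0.865). Without wild type replicate 2 it was -0.13. Its last exons overlap those of A130010J15Rik on the other strand, and no source used here says whether the counting used strand, so reads of this pair may be lost or misplaced. Of 20 genes of lymphocytes and blood progenitors 8 passed the filter, 4 higher and 4 lower in their means (median log2 difference 0.17). The 2 with the smallest p, both higher, were Cd52, at 35.4 ± 15.2 in knockout and 17.8 ± 13.2 in wild type and Ikzf1, at 15.6 ± 7.83 in knockout and 6.13 ± 5.40 in wild type. Among 21 genes of TRAF proteins and their partners, means were higher for 11 and lower for 10 (median log2 difference 0.02, 0 past 0.1), with Traf4 at 1501 ± 101 in knockout and 1196 ± 159 in wild type and Traf1 at 19.4 ± 12.6 in knockout and 6.03 ± 6.82 in wild type.

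The window of 1 Mb on either side of Mir205 was then read as a whole. It held 32 gene starts, of which 11 passed the filter, and the host transcript was the only one of these 11 that did not lie beyond Mir205 in its direction of transcription. None of the 11 reached 0.1 by limma-trend, edgeR or DESeq2, and 1, the host transcript, had an unadjusted p under 0.05, a share close to the 9.77% of all tested genes. DESeq2 called 1.52% of all genes. Their log2 differences were positive in 9 and negative in 2, with a median of 0.15. The host transcript had the largest difference of the 11, and it was also the only one whose groups did not overlap. Of all 15029 tested genes, the knockout libraries all lay above the wild type libraries in 706 and all below in 785. The host's direction, all above, holds 4.7% of all tested genes. With 1 gene of 11, whether a lack of overlap is more frequent in the window than elsewhere cannot be told.

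**Figure D4:**
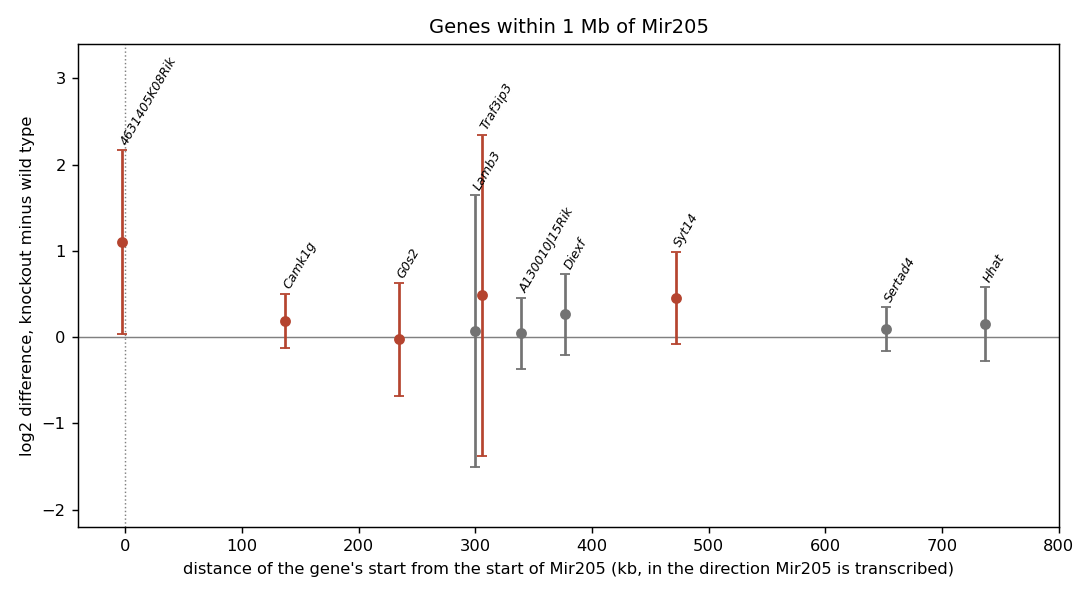
Log2 difference, miR-205 knockout minus wild type, with its 95% interval from limma-trend, against the distance in kb of each gene's start from that of Mir205, for 10 of the tested genes within 1 Mb. Members are red and other genes grey. The interval of the host transcript, from 0.04 to 2.17, is the only one of these that lies above 0.

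Among these neighbours Lamb3 encodes a chain of the laminin that anchors basal epithelium. Lamb3 had 24.8, 114, 183 and 173 normalized counts in knockout replicates 1 to 4, against 133, 98.0 and 61.7 in wild type replicates 2 to 4 (log2 difference 0.07, SE 0.68). The groups overlapped, and the lowest value of all lay in knockout replicate 1, the library with the lowest ectoderm mean. Lamb3 is itself among the 33 genes of that mean, so the 2 low values are not separate observations. Sertad4 (0.10, SE 0.11), Hhat, the acyltransferase of Hedgehog ligands (0.15, SE 0.19), Diexf (0.26, SE 0.21) and A130010J15Rik (0.05, SE 0.18) had log2 differences whose 95% intervals included 0. Exons of Sertad4 overlap those of Gm15867 on the other strand, so its value is uncertain in the same way as that of Traf3ip3. Exons of A130010J15Rik overlap those of Traf3ip3 and also those of a gene on its own strand. Its reads in that second overlap may be lost whatever the strand setting.

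Other noncoding RNAs that carry microRNAs gave a comparison for the host transcript. Of 18 listed, 17 were in the table and 13 passed the filter, with means higher in knockout for 7 and lower for 6 (median log2 difference 0.01). None passed 0.1 and 0 had an unadjusted p under 0.05. Mir124-2hg, the host of a neuronal microRNA, had 90.3, 148, 171 and 105 normalized counts in knockout, against 239, 7.74 and 12.2 in wild type. C130071C03Rik had 76.7, 56.1, 48.6 and 71.8 in knockout, against 105, 0 and 27.1 in wild type. In both of these hosts wild type replicate 2 held the highest value of the 7 libraries, where 4631405K08Rik had its lowest.

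The genes most like the host transcript were found by the root mean square difference of their log2 values over the 7 libraries, each gene centred on its own mean. By that measure 1700030C10Rik (0.28), Thbs2 (0.32), Rgl3 (0.33), C130046K22Rik (0.33) and Gm20482 (0.35) came first of 15028 genes, whose median was 0.81. Thbs2, a thrombospondin of the matrix, had 222, 261, 308 and 252 normalized counts in knockout, against 45.2, 129 and 182 in wild type. The other 4 averaged under 20 normalized counts in either group. Among the members Camk1g was at 0.72, Syt14 at 0.74, G0s2 at 0.88 and Traf3ip3 at 1.00. A gene with the same value in all libraries would be at 0.77, the spread of the host about its own mean, so values near it say little of a shared pattern.

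Markers of cells that laser capture can include are given for the whole lists. Endothelial genes had 12 higher and 1 lower of 13, with Pecam1 at 198 ± 97.4 in knockout and 69.2 ± 15.5 in wild type and Eng at 169 ± 61.3 in knockout and 71.5 ± 11.6 in wild type. All 13 macrophage genes had higher means, with C1qb at 270 ± 79.9 in knockout and 140 ± 61.2 in wild type and Aif1 at 43.0 ± 7.65 in knockout and 19.7 ± 9.45 in wild type. Mesenchymal genes had 12 higher and 8 lower of 20 (median log2 difference 0.11). The 2 with the smallest p, both higher, were Col1a1, at 2470 ± 372 in knockout and 1905 ± 234 in wild type and Pdgfrb, at 522 ± 185 in knockout and 280 ± 85.8 in wild type. Skeletal muscle genes had 12 higher and 1 lower of 13, led by Myh8 (64.0 ± 55.3 in knockout and 14.0 ± 11.4 in wild type) and Myh3 (258 ± 356 in knockout and 40.1 ± 67.4 in wild type). Schwann and melanocyte precursor genes had 8 higher and 3 lower of 11, with Kit at 375 ± 70.1 in knockout and 241 ± 19.96 in wild type and Sox10 at 219 ± 98.7 in knockout and 107 ± 41.6 in wild type. All 12 erythroid genes had lower means, with Hbb-bt at 7409 ± 3389 in knockout and 14878 ± 9407 in wild type and Klf1 at 47.0 ± 11.8 in knockout and 86.1 ± 55.4 in wild type. The mean log2 value over a list lay between 6.37 and 7.18 in knockout and between 5.13 and 6.66 in wild type for macrophages, and between 3.66 and 8.69 in knockout and between 2.57 and 6.73 in wild type for skeletal muscle. For mesenchyme it lay between 9.67 and 10.23 in knockout and between 9.71 and 9.97 in wild type, so those libraries overlapped in each of the 3 lists. For Schwann and melanocyte precursors it lay between 5.76 and 7.18 in knockout and between 5.39 and 6.88 in wild type. For erythroid genes it lay between 10.34 and 11.55 in knockout and between 10.56 and 12.49 in wild type. For endothelium it lay between 6.18 and 7.62 in knockout and between 5.85 and 6.29 in wild type, so these overlapped too. In each of these lists 0 genes passed 0.1. An unadjusted p under 0.05 was reached by 6 of 13 endothelial, 4 of 13 macrophage and 3 of 20 mesenchymal genes. It was reached by 1 of 13 skeletal muscle, 2 of 11 Schwann and melanocyte precursor and 0 of 12 erythroid genes. Over all tested genes the share was 9.77%. The part of these lists in the values of the locus was not tested.

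Across 17 other settings the host transcript kept a positive difference, between 0.63 and 1.50 on the log2 scale, and its adjusted p lay between 0.120 and 0.789. These settings share libraries, so their constant sign is not independent evidence. The lower end of the limma-trend interval was negative with no filter on low values (-0.07) and with values above 10 in each library (-0.01). It was also negative without knockout replicate 1 (-0.06), 3 (-0.25) or 4 (-0.27), and without wild type replicate 2 (-0.05). Without knockout replicates 1 and 2 it was -0.13. It was positive in the other settings with an interval.

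**Figure D5:**
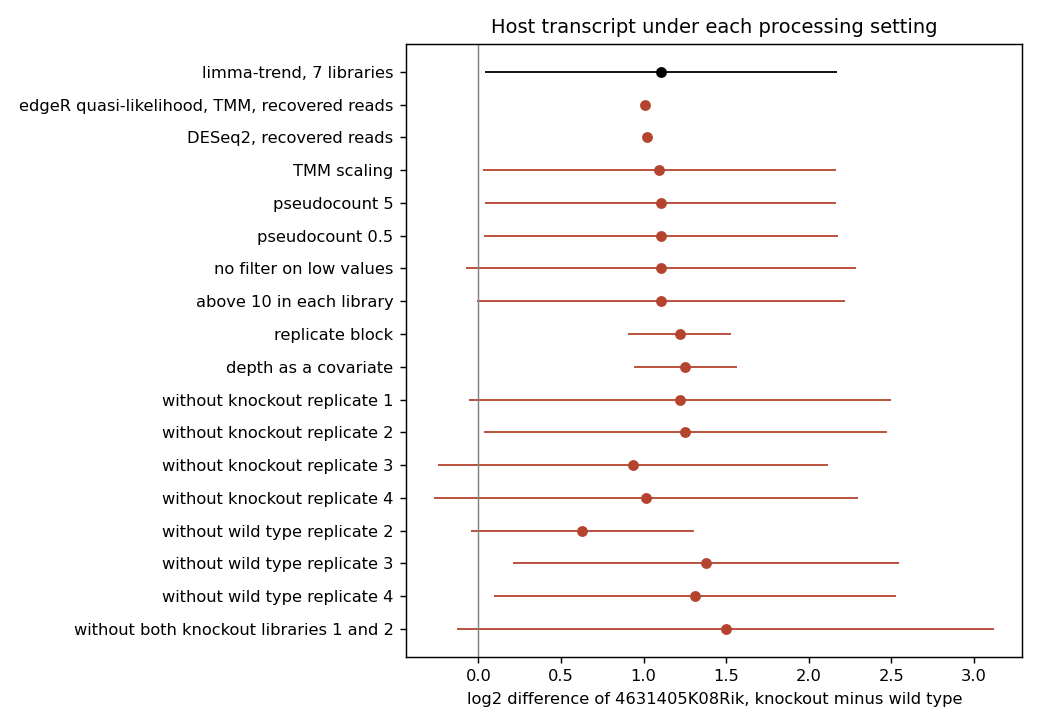
Log2 difference of 4631405K08Rik, miR-205 knockout minus wild type, in the 7 libraries (black) and under 17 other settings (red). Lines are 95% intervals, drawn for limma-trend only. The lowest value, 0.63, is that without wild type replicate 2 and the highest, 1.50, that without knockout replicates 1 and 2.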

How the data were processed

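The samples were surface ectoderm, cut by laser and sequenced as cDNA, from 4 miR-205 knockout and 3 wild type pools of 3 embryos. The submitters' processing notes name TopHat2 2.0.9 and GRCm38 for the mapping of reads, which were counted per gene with HTSeq (intersection-strict mode, per the series' design text) and tested with DESeq2. A wild type library numbered 1 was set aside by the submitters and was not analysed here. Strand setting and annotation release are not given in the sources used here. The deposited signal columns are the authors' normalized counts, the log2 values are fold changes, knockout against wild type, that the authors moderated, and the p-value columns are the authors' p and adjusted p.

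The smallest value above 0 in each library was taken as 1 read. 100% of values above 0 then came out whole within 0.01 read. The design named a count test for raw counts and limma-trend otherwise, and since the values are normalized, limma-trend 3.58.1 (R 4.3.3, robust) on log2(normalized count + 1) was used over 15029 genes averaging 10 or more, Benjamini-Hochberg adjusted over all of them and a threshold of 0.1. Log2 differences on that scale understate changes of weakly expressed genes. edgeR 4.0.16 and DESeq2 1.42.0 on recovered reads were alternatives. In simulated counts, limma-trend recovered 58 of 100 changes of 2-fold and 98 of 100 changes of 4-fold. The simulation gave all genes the same spread, which was not taken from these libraries, so these shares do not carry over to them. Exact permutation tests used SciPy 1.17.1. Positions, exon lengths and 3′ UTRs came from GENCODE M21 (GRCm38), which held 47224 of the 47729 genes.

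The members, gene lists, tests and alternatives were chosen with earlier results of these data known. Named were the members, tested genes within 1 Mb, the 5 genes most like the host, the 2 members of each list with the smallest p, and Trp63, Pax6 and Krt5. Libraries correlated between 0.894 and 0.961, and 0 of 21 pairs were identical. Nothing in the labels says that pools of 1 group came from separate litters, so p-values measure the spread between these pools. The values of 1 tested gene within 1 Mb are not reported here and are not drawn, though it is in the counts over that window.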

Additional observations from a re-analysis of the deposited data

Results flagged for a closer look

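A single library far from the others of its group, by Dixon's criterion at the 95% level, was looked for among the 4 knockout libraries in 50 sets of values, of which chance alone flags about 1 in 20. It was met by 2 genes of the lists and by no member of the locus. Mt1 had 1499 normalized counts in knockout replicate 3, against 987 to 1055 in the other knockout libraries. Kit had 270.4 normalized counts in knockout replicate 2, against 399 to 417 in the other knockout libraries. The 3 wild type libraries are too few for this criterion, so wild type replicate 2, with its low value of the host transcript, was not judged by it.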

How the results depend on the processing

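Directions of 4631405K08Rik, Camk1g and Syt14 held under all 17 alternatives, and no member or gene within 1 Mb passed 0.1 in any. The count over all genes, 0 by limma-trend and by edgeR, was 223 with DESeq2, 2 above 10 in each library, 3 without knockout replicates 1 and 2, and 0 to 84 when leaving out 1 library, with 84 without wild type replicate 2 (the cause was not tested). G0s2 ranged from -0.21 to 0.20 when leaving out 1 library and turned to 0.14 without knockout replicate 3 and 0.20 without wild type replicate 4. Traf3ip3, at -0.13 to 0.93 in such fits, turned to -0.13 when wild type replicate 2 was left out and -0.23 when knockout replicates 1 and 2 were. Leaving out 1 library gave 0.63 to 1.38 for the host transcript and 0.93 to 1.64 for its difference from the ectoderm mean; that difference was judged by the replicate SD, since its test cannot reach 0.05. With the replicate number as a block the host difference was 1.22 (SE 0.13, limma-trend adjusted p = 0.146), the difference from the ectoderm mean 1.36, and 3 genes passed in all. Knockout replicate 1 has no wild type library of its number here, so these block estimates rest on replicates 2 to 4 alone. Leaving out knockout replicate 1 without a block gave the same host difference, 1.22, with an SE of 0.50. Deviations of same-numbered libraries correlated at 0.097, 0.11 and -0.011 for numbers 2, 3 and 4. Differently numbered libraries were not compared, so whether the numbers pair the samples cannot be told. TMM scaling moved the median of all genes by -0.01. Depth limits Hsd11b1 and Traf3ip3 most, and Mir205 has no reads to compare.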
